A study of Mus musculus with 8 samples.

Results

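Mitochondrial ribosomal protein genes were taken as the protein-coding genes of the GENCODE M1 mouse annotation whose names start with Mrpl or Mrps followed by a digit. The rule found 77 genes among 22232 protein-coding genes, of which 47 encode proteins of the large subunit (Mrpl) and 30 of the small subunit (Mrps). One of them, Mrps36-ps1, carries a pseudogene's name but is annotated as protein-coding. For each gene, the best-scoring binding site within 1 kb of any of its start sites was recorded in each of 8 site lists. The rule reads gene names and no binding value.

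Binding was measured by ChIP-exo-seq, chromatin immunoprecipitation followed by exonuclease trimming of the DNA up to the crosslinked protein, with antibodies against the transcription factors E2f3 and Myc. The cells were intestinal crypt cells and villus cells of mice on a mixed background (C57BL/6 X 129 X FVB/N), either control or Rb KO, in which the retinoblastoma gene Rb had been deleted with Ah-cre, an inducible intestinal Cre. The sources used here do not give the age of the mice, the Rb allele or the Cre status of the controls. The lists were control crypt, Rb KO crypt, control villus and Rb KO villus, each for E2f3 and for Myc, with 1 library per list and no replicate. Gene expression was not measured here, so the identity of the crypt and villus cells could not be checked against marker transcripts, and no list says whether a bound gene was transcribed. In bulk chromatin, more cells with a bound site and more binding per cell cannot be told apart.

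Mitochondrial ribosomes translate the proteins encoded by mitochondrial DNA, which are subunits of the respiratory chain and of ATP synthase. Their RNA is transcribed in the organelle, whereas all their proteins come from nuclear genes and are imported. E2f proteins bind promoters of cell-cycle and replication genes, and the retinoblastoma protein binds several of them and holds their targets in check. Myc, a regulator of growth, is known for binding E-boxes and for promoting ribosome and mitochondrial biogenesis. Intestinal epithelium renews itself from dividing cells in the crypts, and the villi are lined with differentiated cells.

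The lists held between 4119 and 159181 sites. Each site carries the authors' score, which ranges from 2 to a cap of 999 and whose meaning is not given in the sources used here. Sequencing depth is unknown, and the lists were not normalised against each other as far as the sources say. Scores were therefore read as ranks within a list, given as the percentage of genes with a site in that list whose best site scored lower. Where scores of a gene in different lists are printed side by side, their sizes cannot be compared between lists. With 1 library per group there is no measure of replicate spread and no test, and the exact 95% Clopper-Pearson intervals given below cover counting error over genes only.

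The sequences below are the 30 bases around the best E2f3 site of members bound in several lists, read from NCBIM37 (mm9) on the strand of the ribosomal protein gene, with the site at base 15. Capitals mark an E2F motif, searched on both strands as TTCCCGC, by the letters TTCGCGC, by TTGCCGC and also by TTGGCGC. Where it lies on the other strand, its reverse complement is in capitals. The first 6 windows come from genes bound in all 4 E2f3 lists, and the last 3 are motif sites of genes whose lists differ between genotypes. Only windows that hold the motif are shown. Mrpl21 and Mrpl50, also bound in all 4 lists, had no E2F motif within 50 bp of their best sites and are left out.
Mrps12, all 4 lists (chr7:29526956-29526985, minus strand): cgcaaggagatTTCCCGCccaggcttcaga
Mrps18c, all 4 lists (chr5:101227628-101227657, plus strand): gcccgggaagcGCGGGAAgataaaggtgca
Mrps6, all 4 lists (chr16:92058740-92058769, plus strand): ctcagaccgagTTCCCGCgcgggcgcgccc
Mrpl18, both crypt lists (chr17:13109124-13109153, minus strand): agaagaaagGCGCGAAagtggaaaacggaa
Mrpl13, both crypt lists and Rb KO villus (chr15:55389048-55389077, minus strand): ctacgtcggttTTCCCGCcaattattgtgg
Mrpl13, control villus (chr15:55388894-55388923, minus strand): ggtgtctgtgtTTCCCGCcggacccgtggt
Mrpl12, both villus lists (chr11:120345978-120346007, plus strand): cgcgtgtgaccTTCCCGCttgcggagctat
Mrps36, both crypt lists and Rb KO villus (chr13:101514655-101514684, minus strand): tgagtgtctagGCGGGAAgaggggcggggc
Mrpl23, control crypt and Rb KO villus (chr7:149719180-149719209, plus strand): gcccgcacgcgGCGGGAAacccgccagggt

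E2f3 had a site at 30 of the 77 genes in at least 1 list, 39.0% of them (interval 28.0% to 50.8%), against 24.1% of all protein-coding genes. In control crypt, 22 members had an E2f3 site (28.6%, interval 18.8% to 40.0%), against a background of 14.6% of all genes. In Rb KO crypt, 27 members had one (35.1%, interval 24.5% to 46.8%), against 20.2%. In control villus the count was 8 (10.4%, interval 4.59% to 19.4%), against 4.47%. In Rb KO villus it was 21 (27.3%, interval 17.7% to 38.6%), against 12.4%. In each E2f3 list the members' interval lay above the share of all genes, in control villus by a narrow margin. With each site given to the nearest gene only, the control villus count fell to 2 (2.60%), below the 3.89% of all genes, while the other 3 E2f3 shares stayed above (19.5% against 13.2%, 24.7% against 18.3% and 19.5% against 11.1%). For the 19 of 77 members in Rb KO crypt the exact interval is 15.6% to 35.8%, which includes 18.3%. Intervals were not computed for the other nearest-gene shares.

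**Figure D1:**
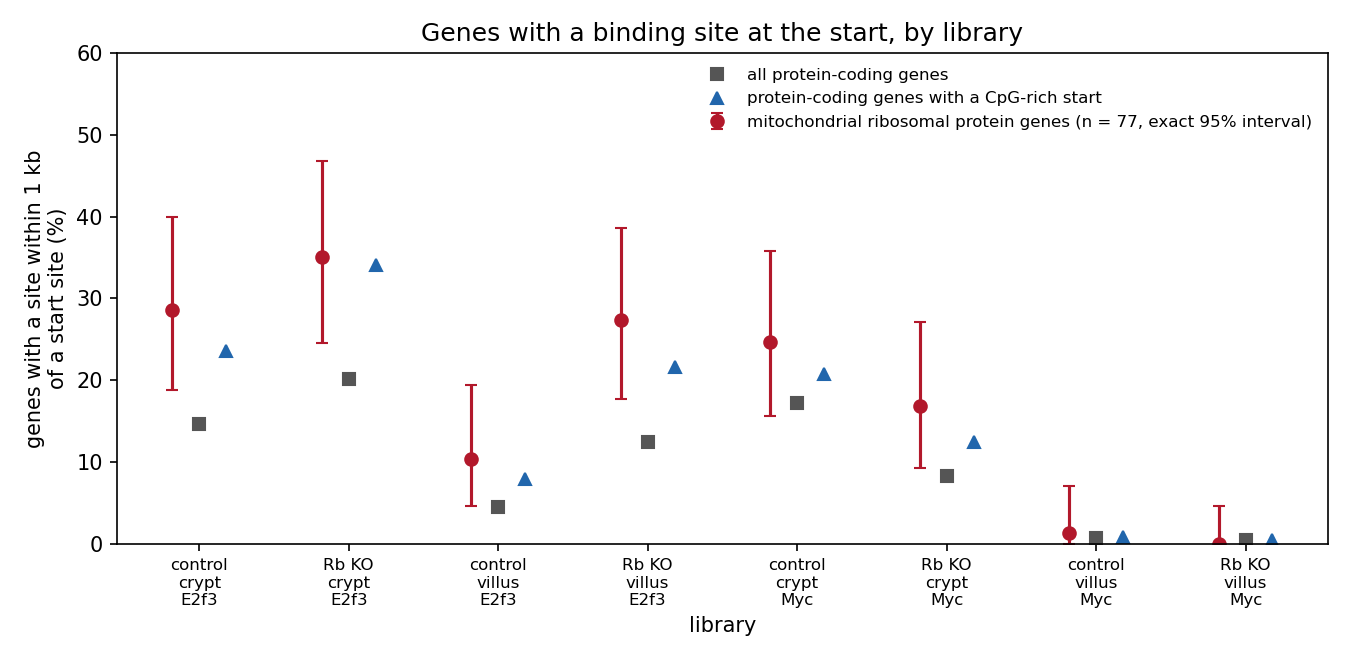
Share of genes (y axis, percent) with a site no farther than 1 kb from a start in each of the 8 libraries (x axis). Circles are the 77 mitochondrial ribosomal protein genes with exact 95% intervals, squares all protein-coding genes and triangles the protein-coding genes with a CpG-rich start. The circles lie above the squares in every library but Rb KO villus Myc, and the triangles lie inside the intervals of the circles.

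Most mitochondrial ribosomal protein genes start in CpG-rich DNA, as housekeeping genes generally do. From 250 bp before to 50 bp after the main start, 67 members (87.0%) had a CpG observed-to-expected ratio of at least 0.6, against 45.7% of all genes. Among genes of that class, the shares with an E2f3 site were 29.9% of members against 23.6% of genes in control crypt and 35.8% against 34.1% in Rb KO crypt. They were 11.9% against 7.92% in control villus and 29.9% against 21.6% in Rb KO villus. Within CpG-rich starts, each of these 4 gene shares fell inside the members' interval (19.3% to 42.3%, 24.5% to 48.5%, 5.30% to 22.2% and 19.3% to 42.3%). The part of promoter composition in the difference from all genes was not tested further.

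The large subunit held most of the bound genes. An E2f3 site was found at 23 of 47 large-subunit genes (48.9%, interval 34.1% to 63.9%) and at 7 of 30 small-subunit genes (23.3%, interval 9.93% to 42.3%), and the intervals overlap. By list, the large-subunit counts were 16 in control crypt, 20 in Rb KO crypt, 5 in control villus and 14 in Rb KO villus. The small-subunit counts were 6, 7, 3 and 7 in the same order.

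The 30 genes fell into 8 combinations of E2f3 lists. Of them, 7 (9.09% of members) had an E2f3 site in all 4 lists, against 3.37% of all genes, and 9 (11.7%) in both crypt lists and in Rb KO villus but not in control villus, against 4.61%. Another 4 (Mrpl34, Mrpl36, Mrpl43 and Mrpl55) had sites in both crypt lists alone, 5.19% against 3.48% of all genes. Sites in Rb KO crypt alone were found at 5 (Mrpl1, Mrpl15, Mrpl24, Mrpl38 and Mrpl49), 6.49% against 5.38%, which is near the background. The other 5 genes were Mrpl12 (all lists but control crypt), Mrpl11 and Mrpl32 (control crypt and Rb KO villus), Mrps17 (both Rb KO lists) and Mrpl30 (Rb KO villus alone).

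**Figure D2:**
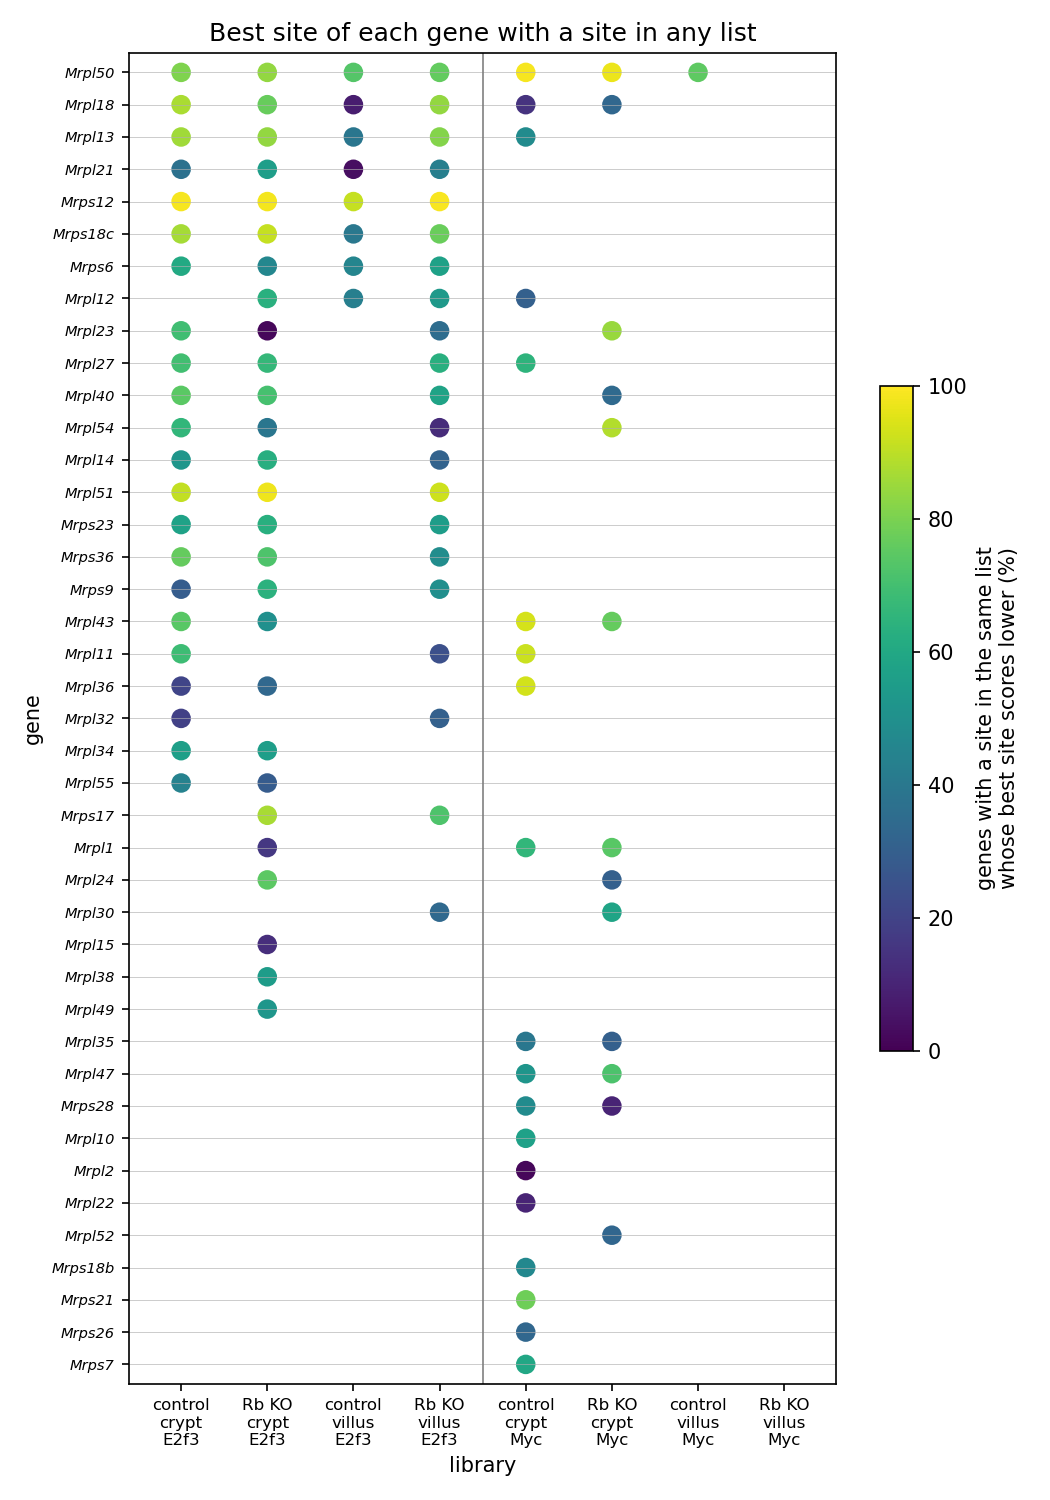
Best site of each of the 41 genes with a site in any list (rows) by library (columns), with the 4 E2f3 lists left of the line and the 4 Myc lists right of it. Colour gives the percentage of genes with a site in the same list whose best site scores lower. Mrps12 and Mrpl51 are bright in the E2f3 lists that hold them, the control villus column is sparse, and the villus Myc columns hold 1 gene, Mrpl50.

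Mrps12, which encodes the small-subunit protein at the decoding centre, had the strongest E2f3 site of the set. Its scores were 999 in control crypt, 999 in Rb KO crypt, 55.51 in control villus and 189.54 in Rb KO villus. They exceeded those of 98.5%, 98.1%, 91.2% and 99.0% of the genes bound in each list. All 4 lists placed the site on the same base, 132 bp upstream of the Mrps12 start and at the centre of TTCCCGC. That base is 39 bp upstream of the start of Sars2, the mitochondrial seryl-tRNA synthetase gene, which runs the other way, so both genes carry the same site.

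The whole stretch between the Mrps12 and Sars2 starts is short enough to print, because the strongest E2f3 site of the set lies in it. It covers 170 bases (chr7:29526840-29527009, minus strand, 5′ to 3′ towards Mrps12) and no annotated exon. It holds 1 E2F motif, in capitals, and 4 copies of the pentamer CCAAT on either strand.
Sars2 to Mrps12: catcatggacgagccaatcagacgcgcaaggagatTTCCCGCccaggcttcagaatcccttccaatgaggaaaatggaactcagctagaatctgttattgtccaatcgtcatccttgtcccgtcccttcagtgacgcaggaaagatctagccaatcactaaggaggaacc

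Mrps18c encodes 1 of the variant forms of the S18 protein of the small subunit. Its site lay 4 bp upstream of the start in all 4 lists, on the same base, at the centre of TTCCCGC. The scores were 64.66 in control crypt, 100.37 in Rb KO crypt, 7.97 in control villus and 21.73 in Rb KO villus. They exceeded those of 86.4%, 91.3%, 40.1% and 77.1% of bound genes, so it ranked high in both crypt lists and in Rb KO villus and below the middle in control villus. The start of Helq, a DNA helicase gene on the other strand, lies 27 bp from the Mrps18c start.

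Mrpl13, a large-subunit gene, had different best sites in control villus and in the other lists. The scores were 62.49 in control crypt, 52.79 in Rb KO crypt, 7.85 in control villus and 27.12 in Rb KO villus. The best site lay 212 bp upstream of the nearest start in both crypt lists and in Rb KO villus, and 58 bp upstream in control villus. Both positions were centred on TTCCCGC, as the sequences above show, and lay 87 and 54 bp upstream of a start of Mtbp, a gene with roles in replication initiation.

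Mrpl18 scored 69.25 in control crypt, 33.56 in Rb KO crypt, 3.04 in control villus and 33.03 in Rb KO villus. Its site lay in the 5′ UTR, 70 or 72 bp downstream of the start in the 3 lists other than control villus, where it lay at 117 bp. It ranked above 87.3%, 76.6%, 7.95% and 83.9% of bound genes, which put the control villus site near the bottom of its list. The opposite gene, Tcp1, encodes a subunit of the cytosolic chaperonin that folds actin and tubulin.

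Mrps6 and Mrpl21 were bound in all 4 lists at middling to low ranks. With the 7405 best-scoring sites of each list, Mrps6 was bound in 2 lists and Mrpl21 in 1. Mrps6 scored 18.32 in control crypt, 10.70 in Rb KO crypt, 8.98 in control villus and 10.32 in Rb KO villus, at 1 base in an intron, 239 bp downstream of the start and centred on TTCCCGC. That base is 187 bp from the start of Slc5a3, a myo-inositol transporter gene on the same strand. Mrpl21 scored 9.03, 14.58, 2.65 and 7.19 in the same order, at positions from 50 to 58 bp downstream of its nearest start. No E2F motif lay within 50 bp of the Mrpl21 sites, but the letters TCCCCGC did, a match when any base is allowed at 1 of the first 2 positions of the motif (the motif with 1 free base).

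Mrpl50 was the only member bound in 7 of the 8 lists. Its E2f3 scores were 42.88 in control crypt, 52.82 in Rb KO crypt, 20.28 in control villus and 20.53 in Rb KO villus. They exceeded those of 80.7%, 83.8%, 73.1% and 75.8% of bound genes. Its Myc scores were 999 in control crypt, 64.45 in Rb KO crypt and 13.74 in control villus, above 98.7%, 97.1% and 75.0% of bound genes. All 7 best sites lay between 787 and 812 bp upstream of Mrpl50, and between 663 and 688 bp downstream of the start of Zfp189. No E2F motif, no E-box (CACGTG) and no E2F motif with 1 free base lay within 50 bp of any of them. Neither an input nor a control-antibody library was analysed here, so enrichment at this position without either antibody was not tested.

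In villus, 13 members (16.9%) had an E2f3 site in the Rb KO list and none in the control list, against a background of 8.67% of all genes. No member had a site in control villus alone, against 0.729% of all genes, and 8 had sites in both. Of the 21 members bound in either villus list, 61.9% (interval 38.4% to 81.9%) were in the Rb KO list alone, and over all genes the share was 66.0%. The share of all genes lay inside the members' interval. The Rb KO list held 14843 sites and the control list 7405. When the longer list was shortened to its 7405 best-scoring sites, 7 members (9.09%) were in Rb KO villus alone, against 3.91% of all genes, and 1 (1.30%) in control villus alone, against 1.32%.

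Mrpl51 had the highest score of the 13. It scored 64.93 in Rb KO villus (above 92.4% of bound genes), 94.74 in control crypt and 265.89 in Rb KO crypt, and had no site in control villus. The sites lay 476 to 485 bp upstream of Mrpl51 and 85 to 94 bp upstream of Ncapd2, which encodes a condensin subunit needed for mitotic chromosomes. No E2F motif lay within 50 bp, but GTCGCGC lay at 2 to 11 bp from the site.

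Mrps17 scored 17.76 in Rb KO villus and 68.59 in Rb KO crypt, with no site in either control list. Its sites lay at 61 and 62 bp upstream of the start, without an E2F motif within 50 bp. Mrpl27 scored 12.56 in Rb KO villus, 26.19 in control crypt and 22.00 in Rb KO crypt, on 1 base 59 bp upstream of its start. Both genes therefore ranked in the upper part of the Rb KO villus list, above 71.9% and 63.0% of bound genes.

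Mrpl40 scored 10.57 in Rb KO villus, 31.21 in control crypt and 25.88 in Rb KO crypt, on 1 base of its 5′ UTR 35 bp downstream of the start. It is paired head to head with Hira, a histone chaperone gene. Mrps23 scored 9.64 in Rb KO villus, 16.94 in control crypt and 19.42 in Rb KO crypt, 190 or 195 bp upstream of the start beside TTGGCGC. Mrps9 scored 8.37, 6.95 and 19.94 in the same order, 10 bp upstream of its nearest start.

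Mrps36 scored 8.25 in Rb KO villus, 33.96 in control crypt and 27.05 in Rb KO crypt, on 1 base 56 bp upstream of the start and centred on TTCCCGC. Its product was first described in mitochondrial ribosomes and is known as a component of the 2-oxoglutarate dehydrogenase complex. Mrpl23 scored 6.13 in Rb KO villus, 25.63 in control crypt and 2.26 in Rb KO crypt. The Rb KO crypt site was another one, 130 bp instead of 277 bp downstream of the start, and ranked above 1.94% of bound genes. The other 5 genes bound in Rb KO villus but not in control villus were Mrpl11, Mrpl14, Mrpl30, Mrpl32 and Mrpl54, with scores from 3.37 to 5.93.

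In crypt the E2f3 lists overlapped more. Both lists held 20 members. In the Rb KO list alone were 7 (9.09%), against 8.23% of all genes, and in the control list alone 2 (2.60%), against 2.60%. Both member shares were near the background with the lists at full length. Of the 29 members bound in either crypt list, 24.1% (interval 10.3% to 43.5%) were in the Rb KO list alone, and of all bound genes 36.1%. The best sites of the 20 shared members were within 250 bp of each other in all 20, as they were for 93.1% of all shared genes. They were on the same base in 12, and for 52.2% of all shared genes.

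The 7 genes with a site in Rb KO crypt alone were led by Mrps17 and Mrpl24. Mrpl24 scored 30.82 (above 74.8% of bound genes), 63 bp upstream of the start with the motif TTCGCGC at 4 bp. Mrpl12, whose product recruits factors to the ribosome and is also known to bind the mitochondrial RNA polymerase, scored 19.73 at 60 bp upstream. In both villus lists, where it scored 8.40 and 9.14, its site lay 65 bp downstream of the start in the 5′ UTR. Mrpl38 scored 14.03, Mrpl49 13.21, Mrpl1 4.21 and Mrpl15 3.66. The genes in the control crypt list alone were Mrpl11 with 24.40 and Mrpl32 with 5.12, and both also had a site in Rb KO villus, with 4.67 and 5.50.

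Between cell types, the crypt lists held more members than the villus lists in both genotypes, 22 against 8 in control and 27 against 21 in Rb KO. In the control libraries, 15 members (19.5%) had an E2f3 site in crypt but not in villus, against 10.5% of all genes. Only Mrpl12 (1.30%) had one in villus but not in crypt, against 0.432%. Of the 23 members with an E2f3 site in either control list, 65.2% (interval 42.7% to 83.6%) were in crypt alone. Over all bound genes the share was 70.2%, inside the members' interval. In the Rb KO libraries, 9 members (11.7%) were bound in crypt but not in villus, against 9.48%, which is near the background. In villus but not in crypt were 3 (Mrpl11, Mrpl30 and Mrpl32, 3.90%), against 1.69%. The Rb KO lists shared 18 members and the control lists 7. The crypt E2f3 lists were longer than the villus ones, with 32666 sites in control and 27396 in Rb KO. With the 7405 best-scoring sites of each list, 12 members were bound in control crypt (15.6%, against 4.80% of all genes) and 8 in control villus (10.4%, against 4.47%). In Rb KO, 14 were bound in crypt (18.2%, against 7.49%) and 14 in villus (18.2%, against 7.06%). The control and Rb KO comparisons have no library in common, but the difference between them was not tested, since each group is 1 library.

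The E2f3 sites lay close to the start. The median distance from the nearest start was 159.5 bp in control crypt, 82 bp in Rb KO crypt, 91 bp in control villus and 70 bp in Rb KO villus. Over all bound genes these medians were 186, 139, 207.5 and 138 bp. Myc sites lay farther away, at a median of 419 bp in control crypt and 243 bp in Rb KO crypt, against 499 and 309 bp over all bound genes. The 499 bp of control crypt Myc is about the median that sites spread evenly over 1 kb to each side would have. Over all genes that list thus showed no gathering of sites at starts. The farthest best E2f3 site inside the 1 kb window was at 812 bp (Mrpl50) and the farthest Myc site at 932 bp (Mrpl40). Of genes with no site in any list, the nearest sites outside the window were at 1214 bp (Mrpl42) and 1420 bp (Mrps31), both for Myc in control crypt.

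**Figure D3:**
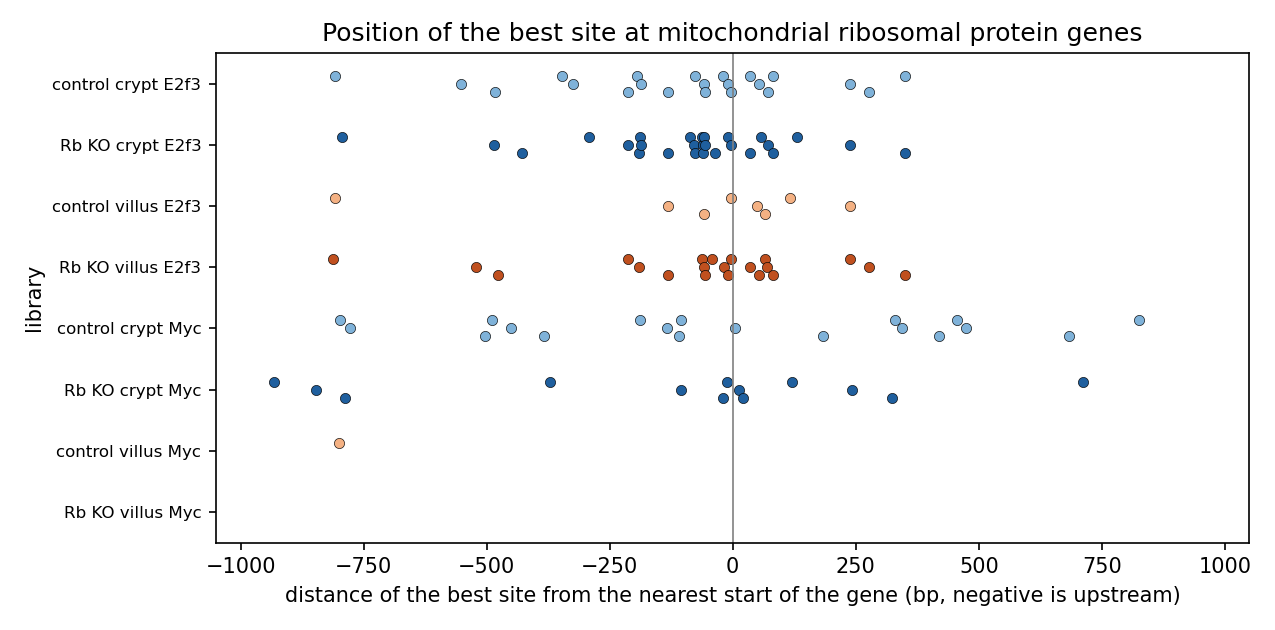
Distance of the best site from the nearest start of the gene (x axis, bp, negative upstream) by library (y axis); each point is 1 gene and is shifted vertically only to separate points. E2f3 sites gather near 0, with medians from 70 to 159.5 bp in either direction, and crypt Myc sites spread wider, with medians of 243 and 419 bp.

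Many of these genes share their promoter with another gene. A gene on the other strand started within 1 kb in a head-to-head arrangement (overlapping by no more than 200 bp) for 27 members (35.1%, interval 24.5% to 46.8%), against 9.89% of all genes. Of those 27, 14 had an E2f3 site in some list (51.9%, interval 31.9% to 71.3%), and of all genes with such a partner 48.2% did. Of the 50 members without a partner, 16 had one (32.0%, interval 19.5% to 46.7%), against 21.4% of genes. Of the 8 members bound in control villus 6 had a partner (75.0%, interval 34.9% to 96.8%), and of the 21 bound in Rb KO villus 12 did (57.1%, interval 34.0% to 78.2%), against 26.2% and 22.0% of the genes bound in those lists.

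The partner was often the nearer gene. Of members with an E2f3 site and a partner, the partner's start was nearer to the site in 7 of 12 in control crypt, 8 of 12 in Rb KO crypt, 5 of 6 in control villus and 6 of 12 in Rb KO villus. The 14 partners have varied functions. Besides Mtbp, Helq, Ncapd2, Hira, Sars2, Tcp1 and Zfp189, named above, they are Eme1 (a subunit of a structure-specific endonuclease, beside Mrpl27), Peo1 (the mitochondrial DNA helicase, beside Mrpl43) and Ighmbp2 (a helicase, beside Mrpl21). The others are Psma2 (a proteasome subunit, beside Mrpl32), Fau (a cytosolic ribosomal protein fused to a ubiquitin-like protein, beside Mrpl49), Mitd1 (beside Mrpl30) and Tmem63b (beside Mrpl14). Which gene of a pair such a site acts on was not measured. Mrpl46 and Mrps11 are partners of each other, and neither had a site in any list.

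**Figure D4:**
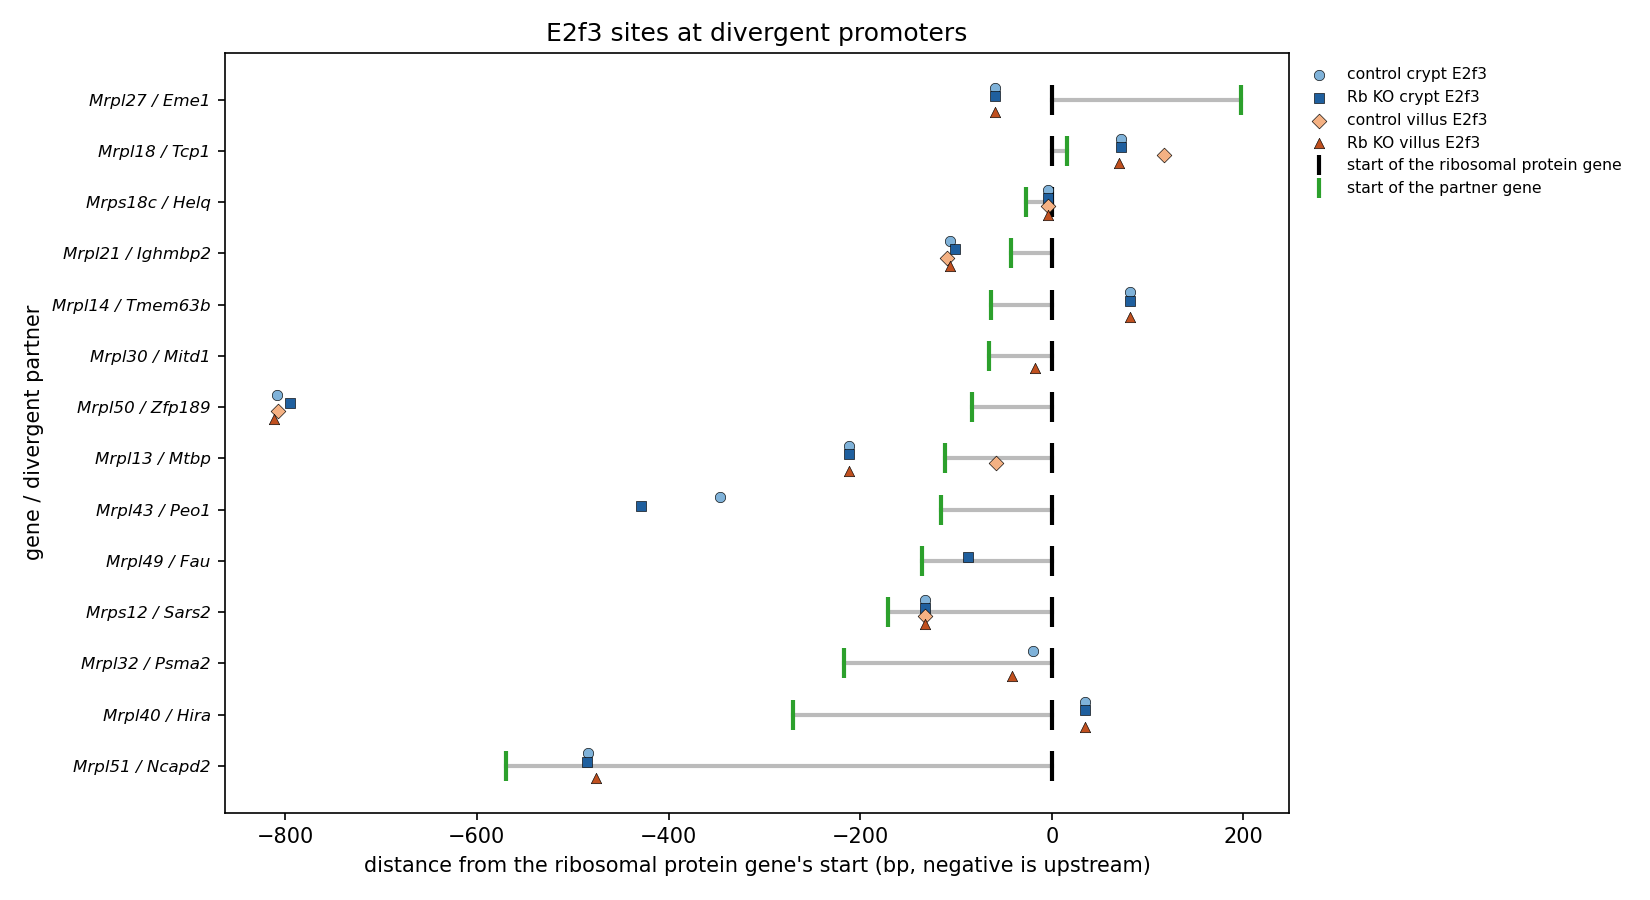
E2f3 sites at the 14 members with a head-to-head partner and an E2f3 site (one line per pair). The x axis is the distance in bp from the start of the ribosomal protein gene that lies closest to the partner (negative upstream), black ticks are that start, green ticks the partner's start, and symbols the best site in each E2f3 library. At Mrps12 and Mrps18c the 4 symbols fall on 1 position between the starts, and at Mrpl50 they lie between 795 and 812 bp upstream, beyond the partner's start.

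The E2F motif lay within 50 bp of the best E2f3 site at 9 of 22 members in control crypt (40.9%), 9 of 27 in Rb KO crypt (33.3%), 6 of 8 in control villus (75.0%) and 9 of 21 in Rb KO villus (42.9%). Over the best sites of all genes these shares were 39.7%, 33.8%, 60.5% and 38.2%, and each lay inside the members' interval. In windows of the same length 2 kb to either side, from 0.771% to 0.987% held the motif. Site placement and motif are not independent, since most sites with a motif lay exactly on its centre. The base composition of the flanking windows was not matched either, so this contrast is a description and not a test. With any base allowed at 1 of the first 2 positions of the motif, the counts were 18 of 22, 23 of 27, 7 of 8 and 19 of 21, against 75.1%, 79.7%, 81.2% and 83.7% over all genes. A match describes the sequence at the site only.

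Myc had a site at 25 of the 77 genes in at least 1 list (32.5%, interval 22.2% to 44.1%), against 20.6% of all genes. In control crypt 19 members had a Myc site (24.7%, interval 15.6% to 35.8%), against 17.2%. In Rb KO crypt 13 had one (16.9%, interval 9.31% to 27.1%), against 8.28%. In control villus the only one was Mrpl50 (1.30%), against 0.738%, and in Rb KO villus there was none of 77, which by the exact interval allows a share of up to 4.68%, against 0.423%. With each site given to the nearest gene only, control crypt Myc was at 11 members (14.3%), below the 16.5% of all genes, and Rb KO crypt Myc at 8 (10.4%, against 7.56%). Within CpG-rich starts the crypt shares were 26.9% of members against 20.7% of genes in control and 17.9% against 12.4% in Rb KO. Both gene shares fell inside the members' intervals, 16.8% to 39.1% and 9.61% to 29.2%.

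As with E2f3, the large subunit held most Myc sites. They were found at 20 of 47 large-subunit genes (42.6%, interval 28.3% to 57.8%) and 5 of 30 small-subunit genes (16.7%, interval 5.64% to 34.7%), and the intervals overlap. In control crypt they were at 14 of the 47 large-subunit and 5 of the 30 small-subunit genes, against 17.2% of all genes. In Rb KO crypt they were at 12 of the 47 and 1 of the 30 (Mrps28), against 8.28% of all genes. Intervals by subunit were not computed for single lists.

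Between the crypt Myc lists, 7 members were shared. In the Rb KO list alone were 6 (7.79%), against 3.36% of all genes, and in the control list alone 12 (15.6%), against 12.3%. The control list held 159181 sites and the Rb KO list 31397. With 4119 sites from each list, Myc was found at 1 member in control crypt (1.30%, against 0.531% of all genes) and 2 in Rb KO crypt (2.60%, against 1.01%). The best sites of the 7 shared members were on the same base in none, against 1.56% of all shared genes. They were within 250 bp of each other in 6 of the 7, against 83.5% of all shared genes. The 6 genes in the Rb KO list alone were Mrpl23, Mrpl24, Mrpl30, Mrpl40, Mrpl52 and Mrpl54.

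The highest Myc score in Rb KO crypt was that of Mrpl50, described above. Mrpl54 followed with 31.60 (above 88.6% of bound genes), 21 bp downstream of the start in the 5′ UTR and on an E-box. Mrpl23 scored 26.08, Mrpl43 19.29, Mrpl1 17.79, Mrpl47 16.68 and Mrpl30 11.37. The other 6 (Mrpl40, Mrpl18, Mrpl52, Mrpl24, Mrpl35 and Mrps28) scored from 3.22 to 6.80. Of the members shared with control crypt, Mrpl43 scored 111.92 there, Mrpl1 23.22, Mrpl47 15.55, Mrps28 13.45, Mrpl35 10.80 and Mrpl18 4.47. By rank in control crypt and then Rb KO crypt, Mrpl1 was above 65.8% and 74.1% of bound genes. Mrpl47 was above 52.3% and 71.6%, and Mrpl18 above 14.6% and 33.0%. Mrpl43 was above 93.7% and 76.5%, Mrps28 above 47.7% and 9.94%, and Mrpl35 above 39.7% and 30.1%.

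The E-box CACGTG, which reads the same on both strands, lay within 50 bp of the best Myc site at 4 of 13 members in Rb KO crypt (30.8%, interval 9.09% to 61.4%), against 30.6% over all genes. In control crypt it lay at none of 19, which allows a share of up to 17.6%, against 4.15% over all genes. The 4 windows are shown because they hold the E-boxes at members' best Myc sites, with the E-box in capitals and the site at base 15.
Mrpl54 (chr10:80729643-80729672, minus strand): cacggaagtctgCACGTGcgagcggccggc
Mrpl24 (chr3:87723592-87723621, plus strand): cgtagagaacgCACGTGgaaagaaagttgc
Mrpl18 (chr17:13110043-13110072, minus strand): accacagcaaacCACGTGcttactcgtatt
Mrpl40 (chr16:18877777-18877806, minus strand): ccagcccgaagCACGTGcccgggctcgccg

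The 12 members with a Myc site in control crypt alone had no E-box within 50 bp of it. Mrpl36 scored 107.10 (above 93.3% of bound genes) at 109 bp upstream of the start, and Mrpl11, whose product forms the base of the ribosomal stalk, 95.61 at 504 bp upstream. Mrps21 scored 37.39, Mrpl27 22.44 and Mrps7 19.41. The other 7, which include Mrpl2, a protein of the catalytic core, and the stalk protein gene Mrpl10, scored from 2.23 to 17.73.

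Some members had sites of both factors. In all, 14 members (18.2%) had an E2f3 site and a Myc site, each in some list, against 9.55% of all genes. Such sites need not come from the same list, as at Mrpl30. They need not lie close together either, as at Mrpl13, where the Myc site lay at another start. E2f3 only was found at 16 (20.8%, against 14.5%) and Myc only at 11 (14.3%, against 11.1%). In Rb KO crypt, 7 members (9.09%) had a Myc and an E2f3 site within 250 bp of each other, against 3.38% of all genes. These were Mrpl50 at 8 bp, Mrpl1 at 26 bp, Mrpl43 at 58 bp, Mrpl54 at 73 bp, Mrpl23 at 113 bp, Mrpl18 at 185 bp and Mrpl24 at 241 bp. Among genes with a site of each factor in Rb KO crypt, that is 7 of 8 members and 751 of 990 genes. In control crypt 5 members (6.49%) did, as did 890 of the 22232 genes, namely Mrpl50 at 11 bp, Mrpl36 at 33 bp, Mrpl43 at 38 bp, Mrpl11 at 48 bp and Mrpl18 at 178 bp. At Mrpl50, Mrpl43, Mrpl11 and Mrpl36 the E2f3 sites had no E2F motif within 50 bp, nor the motif with 1 free base.

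No list held a site within 1 kb of 36 members (46.8%, interval 35.3% to 58.5%), against 64.9% of all genes. In the large subunit these were Mrpl3, Mrpl4, Mrpl9, Mrpl16, Mrpl17, Mrpl19, Mrpl20, Mrpl28, Mrpl33, Mrpl37, Mrpl39, Mrpl41, Mrpl42, Mrpl44, Mrpl45, Mrpl46, Mrpl48 and Mrpl53. They include Mrpl45, whose product faces the inner membrane. In the small subunit they were Mrps2, Mrps5, Mrps10, Mrps11, Mrps14, Mrps15, Mrps16, Mrps18a, Mrps22, Mrps24, Mrps25, Mrps27, Mrps30, Mrps31, Mrps33, Mrps34, Mrps35 and Mrps36-ps1. Mrps16 and Mrpl39 had E2f3 sites of all 4 lists within 5 kb, the nearest at 4687 and 4783 bp. At unknown depth, a missing site is a site not in these lists and not a measured absence of binding.

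Other genes of mitochondrial gene expression were also bound, and the counts below stand against the shares of all genes (14.6% in control crypt, 20.2% in Rb KO crypt, 4.47% in control villus and 12.4% in Rb KO villus for E2f3). Of 17 mitochondrial aminoacyl-tRNA synthetase genes, 4 had an E2f3 site in control crypt, 5 in Rb KO crypt, 2 in control villus and 6 in Rb KO villus. In Rb KO villus Sars2 was bound by the site it shares with Mrps12, and Pars2 scored 47.96. Of 15 genes of mitoribosome assembly and rRNA modification the counts were 5, 6, 3 and 5, led by Mettl17 with 26.52 and the rRNA methyltransferase gene Tfb1m with 22.10. Of 12 translation factor genes they were 4, 5, 2 and 2. Taco1, a translational activator, had a site in all 8 lists, of both antibodies. Its E2f3 score was 200.40 in Rb KO villus, at a site 748 bp downstream of the start. As at Mrpl50, enrichment there without either antibody was not tested.

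Of 7 genes of mitochondrial DNA expression, 1, 3, 0 and 2 had an E2f3 site in the same order. The bound genes in Rb KO villus were Polg, the mitochondrial DNA polymerase gene, with 13.10 and Tfam, a factor that packages and transcribes mitochondrial DNA, with 6.25. Of 7 subunit genes of the mitochondrial ribosome with other names, 2, 3, 0 and 1 had one, and Mrp63 scored 26.29 in Rb KO villus. Myc was found in control crypt at 9 of the 17 synthetase genes, 5 of the 15 assembly genes, 4 of the 12 translation factor genes, 2 of the 7 DNA expression genes and 3 of the 7 other subunit genes, against 17.2% of all genes. In Rb KO crypt it was found at 5, 4, 2, 1 and 0 of them in the same order, against 8.28%.

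The cytosolic ribosomal protein genes, 78 in number, had E2f3 counts that differed from those of the 77 mitochondrial genes by at most 2. They were 20 in control crypt, 27 in Rb KO crypt, 6 in control villus and 19 in Rb KO villus, where the highest scores were those of Rps20 (101.86), Rpl3 (91.95) and Rpl35a (31.57). For Myc, 18 cytosolic genes were bound in control crypt, against 19 mitochondrial ones, and 24 in Rb KO crypt, against 13. A head-to-head partner was found for 14 cytosolic genes, of which 6 had an E2f3 site, against 27 and 14 of the mitochondrial genes.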

How the data were processed

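Binding sites of E2f3 and Myc from 8 ChIP-exo-seq libraries, 1 per group, were used as deposited. The submitters' processing notes name Bowtie2 2.2.1, MACS2 2.0.10 and the build mm9. The deposited files' names describe GEM events overlapping MACS2 peaks, from merged data with duplicates kept; what was merged is not stated. The deposited score of each site is the authors' and its unit and normalization are not stated, so it ranked sites within a list only.

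Deposited positions were taken to count from 0 and 1 was added, because the nearest E2F motif's centre then lay at a median offset of 0 instead of 1. After this, from 72.3% to 84.3% of E2f3 sites with a motif lay exactly on its centre, so site placement and motif are not independent. Genes were protein-coding transcripts of GENCODE M1 on NCBIM37, merged by name into 22232 genes with 46006 start sites. From 145 to 201 sites per list lay on contigs outside this reference and got no gene. A site near starts of 2 genes counted for both.

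No test was possible with 1 library per group. Shares have exact 95% intervals, and sites, motifs and distances were counted with Python 3.11.15, NumPy 2.4.6, SciPy 1.17.1 and pysam 0.24.0, with figures by matplotlib 3.10.9. The counting was tested on simulated data. Named genes are every member with a site in all 4 E2f3 lists, the 8 highest scores in Rb KO alone and the 4 highest in control alone for villus and for crypt, every member with a Myc site in Rb KO crypt, the 5 highest in control crypt alone, every member with a villus Myc site and every member with no site. Others named, among them those in pattern counts, were chosen after their values were seen. The members, gene lists and rules were chosen with earlier results of these data known. The names Pdf and Noa1 from the lists were not matched in the annotation. Alternatives were window width, score, list length, nearest-gene assignment and motif distance. Start sites of all transcripts, the CpG-rich background and the motif with 1 free base were added after seeing the data.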

Additional observations from a re-analysis of the deposited data

Results flagged for a closer look

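At Mrpl11 and Mrpl32 the E2f3 lists of control and Rb KO differed in opposite directions in crypt and in villus. Mrpl11 scored 24.40 in control crypt and 4.67 in Rb KO villus, above 68.5% and 24.5% of bound genes. It had no E2f3 site in Rb KO crypt or control villus. Mrpl32 scored 5.12 in control crypt and 5.50 in Rb KO villus, above 19.2% and 30.5% of bound genes, and had none in the other lists. All of these sites but that of Mrpl11 in control crypt thus ranked low in their lists. The difference was not tested, since each group is 1 library. Over all genes, 85 showed this combination of lists (0.382%), against 2 of 77 members (2.60%).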

How the results depend on the processing

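Of 14 counts of members, 8 moved by over 1.5 times at equal list length and 4 when each site was given to the nearest gene only. With every list shortened to the shortest of its antibody (7405 E2f3 or 4119 Myc sites), E2f3 was found at 12 members in control crypt and 14 in Rb KO crypt, and Myc at 1 and 2, each above the share of all genes given with them in the results. Rb KO villus alone then held 7 members and control villus alone 1. Myc was found in Rb KO crypt alone at 1 (all genes 0.639%) and in control crypt alone at 0 (0.162%). With the better-scoring sites of each list only, the counts were 3 for control villus E2f3 (3.90%, all genes 2.55%), 7 for Rb KO crypt Myc (9.09%, all genes 4.04%), 4 for E2f3 in control crypt alone (5.19%, all genes 1.37%) and 3 for Myc in Rb KO crypt alone (3.90%, all genes 1.61%); Mrpl21 then had 1 E2f3 list. By nearest gene they were 2 for control villus E2f3 (2.60%, all genes 3.89%), 11 for control crypt Myc (14.3%, all genes 16.5%), 8 for Rb KO crypt Myc (10.4%, all genes 7.56%) and 0 for control villus Myc (all genes 0.702%). The first, the second and the last of these thus turned from above to below the share of all genes. Mrpl18, Mrpl21, Mrpl50, Mrps12 and Mrps6 then had 0 E2f3 lists, because another gene's start is nearer. Within 5 kb, Myc was found at 42 members in control crypt (54.5%, all genes 53.1%), 20 in Rb KO crypt (26.0%, all genes 20.2%), 2 in control villus (2.60%, all genes 3.63%), 2 in Rb KO crypt alone (2.60%, all genes 2.28%) and 24 in control crypt alone (31.2%, all genes 35.2%), and E2f3 at 4 in control crypt alone (5.19%, all genes 5.64%). Within 500 bp, control villus Myc was at 0 (all genes 0.306%) and E2f3 in control crypt alone at 1 (1.30%, all genes 2.02%), and Mrpl50 had 0 E2f3 lists. Within 250 bp, an E2F motif lay at 16 of 27 members' sites in Rb KO crypt and an E-box at 1 of 19 in control crypt. The shares over all genes were not counted at 250 bp, so these 2 counts have no background. The motif with 1 free base, within 50 bp, lay at 18, 23 and 19 sites in control crypt, Rb KO crypt and Rb KO villus. Myc and E2f3 sites of Rb KO crypt within 100 bp were found at 4 members, and the share of all genes was not counted at that distance. With start sites of all transcripts, all 14 counts of members stayed within 1.5 times. No paired analysis was possible because each group is 1 library and the comparisons come from no test. Depth is unknown, so a difference between lists of unequal length and a difference in binding cannot be told apart.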

Other observations

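From 250 bp before to 50 bp after the main start, the promoters of mitochondrial ribosomal protein genes held motifs of other factors, searched on both strands. The ETS-type sequence CCGGAAG was found at 27 of 77 members (35.1%, interval 24.5% to 46.8%), against 10.8% of all genes. The YY1-type sequence AAGATGGC was found at 13 (16.9%, interval 9.31% to 27.1%), against 3.35%, and the NRF1-type sequence GCATGCGC at 8 (10.4%, interval 4.59% to 19.4%), against 3.32%. The E2F motif was found at 18 (23.4%, interval 14.5% to 34.4%), against 11.6%. The E-box CACGTG was at 7.79% against 7.71%, CCAAT at 40.3% against 37.9%, and TATAAA at 9.09% against 13.4%. CpG-rich starts made up 87.0% of members and 45.7% of all genes. The sequences were not counted within that class, so the part of base composition in these differences was not tested.

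The same sequences were counted in members with and without an E2f3 site in any list. The E2F motif was at 12 of the 30 with a site (40.0%) and at 6 of the 47 without (12.8%), and at 24.6% of all genes with an E2f3 site. The NRF1-type sequence was at 1 of 30 and 7 of 47, and at 5.67% of all genes with a site. The ETS-type sequence was at 9 of 30 and 18 of 47, and at 17.9% of genes with a site, and the YY1-type at 4 and 9, and at 4.62%. Whether members with and without a site differ was not tested. A match is a description of the sequence and not of binding.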
